A study of Paralichthys olivaceus with 6 samples.

Results

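The symbols *eftud1*, *LOC100536352* and *LOC100003937* each belong to several unigenes (assembled transcripts) of the Japanese flounder gonad that the study listed in opposite directions between fertile and sterile fish. In total, 8 of the 52474 unigenes carry one of these symbols, namely 3 for *eftud1*, 3 for *LOC100536352* and 2 for *LOC100003937*. The 8 unigenes were chosen by their fold changes between fertile and sterile fish in these same 6 libraries, and the 3 symbols because library F1 appeared to differ from the other fertile libraries. Both sets of values are therefore given as a description. A unigene that the study listed as higher in fertile gonads is called fertile-high here, and one listed as higher in sterile gonads is called sterile-high.

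The gonads came from double haploid (DH) females, 3 fertile and 3 sterile, all 5 years old and all offspring of a single wild female. The labels place the fertile gonads at stage V and the sterile gonads at stage III, so that fertility and stage cannot be told apart. Each library was taken as 1 fish (F1, F2 and F3 fertile, S1, S4 and S5 sterile), and the values measure the spread between these libraries only. Libraries S4 and S5 carry numbers that no sample has and a column-name ending of their own, and were taken as sterile from their letter.

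In mitogynogenesis the single chromosome set of an egg is doubled, so that a DH fish is homozygous and sisters differ in which maternal alleles they inherited. In a *de novo* assembly, 1 gene can be represented by several unigenes, for example splice forms, gene copies or alleles, and reads that match more than one of them can be shared or divided. The protein of *eftud1* (also known as EFL1) is a cytoplasmic GTPase that, together with SBDS, releases the anti-association factor eIF6 from the large ribosomal subunit, a late step of ribosome maturation known from yeast and mammals. *LOC100536352* is a zebrafish locus to which the sources used here give no role. Of the *LOC100003937* unigenes, the sterile-high Contig27341 was paired by the study with mouse *Adamts12*, a secreted metalloprotease of the ADAMTS family that cleaves extracellular matrix proteins. The sequences of the unigenes were not analysed here, and none is shown.

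The total counts per library ranged from 25024469 to 35719683, and all 8 unigenes passed the low-count filter that left 35787 unigenes. The gonad somatic cell markers *nr5a1b* and *fshr* were present in every library, with a summed level of 13.8 to 27.9 CPM in the fertile and 6.42 to 12.5 CPM in the sterile libraries (CPM is the count scaled to a common library size, with TMM factors). The meiotic germ cell markers *spo11* and *sycp3* were low, with sums of 0.733 to 1.08 CPM in the fertile and 0.237 to 0.292 CPM in the sterile libraries. Their sums were not read as the amount of germ cells. These marker unigenes were taken from those that the study listed as different between these same fish. Libraries S4 and S5 stood apart from S1 in 28 unigenes that had at least 5 counts in each of them and none in the other libraries. In bulk gonads, a change in the number of cells of a type and a change in the RNA per cell cannot be told apart.

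For *eftud1*, library F1 lay with the sterile libraries in all 3 unigenes. The fertile-high unigene Contig6592 had 11.0 CPM in F1, 43.5 CPM in F2 and 50.4 CPM in F3, and 11.2, 12.0 and 10.3 CPM in S1, S4 and S5. The F1 value thus fell inside the range of the sterile libraries, while F2 and F3 were 4.21 times the sterile mean on average. The sterile-high unigene Contig15049 had 31.6, 9.15 and 10.6 CPM in F1, F2 and F3, and 35.6, 36.9 and 35.5 CPM in S1, S4 and S5. Its F1 value was 3.20 times the mean of F2 and F3 and 0.878 times the sterile mean.

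The other sterile-high unigene of *eftud1*, c10184_g1_i1_4939_21917, showed nearly the same levels, with 28.3, 8.47 and 9.56 CPM in the fertile and 30.9, 34.6 and 30.7 CPM in the sterile libraries. In all 6 libraries the count of Contig15049 was between 1.07 and 1.15 times that of c10184_g1_i1_4939_21917. These 2 unigenes therefore carry 1 pattern and are not separate evidence of it. The fertile and sterile libraries overlapped in Contig6592 but not in the sterile-high unigenes, in which F1 was the highest fertile library and still below every sterile library.

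For *LOC100536352*, library F1 lay between the other fertile and the sterile libraries in all 3 unigenes. The sterile-high unigene Contig23658 had 30.1 CPM in F1, 7.01 CPM in F2 and 8.26 CPM in F3, against 43.7, 55.4 and 41.2 CPM in S1, S4 and S5. The F1 level was 3.95 times the mean of F2 and F3 and 0.645 times the sterile mean.

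The fertile-high unigenes of *LOC100536352* showed a departure of F1 in the opposite direction, and a smaller one as a ratio. Contig9473 had 17.7, 29.1 and 29.8 CPM in F1, F2 and F3, and 5.34, 6.36 and 4.83 CPM in S1, S4 and S5. In c5464_g1_i2_7015_9468 the levels were 18.1, 27.8 and 29.6 CPM in the fertile and 6.40, 7.94 and 6.85 CPM in the sterile libraries. The F1 level was 0.602 and 0.632 times the mean of F2 and F3 in the respective unigenes, and 3.22 and 2.57 times the sterile mean. The count of Contig9473 was 0.978 to 1.05 times that of c5464_g1_i2_7015_9468 in the fertile libraries and 0.706 to 0.833 times in the sterile libraries, so this pair moved together but not in a fixed ratio.

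For *LOC100003937*, library F1 was not set apart from the other fertile libraries, although the symbol was chosen because F1 appeared to differ. The fertile-high unigene Contig5227 had 6.45, 8.23 and 10.7 CPM (174, 243 and 320 counts) in F1, F2 and F3. The sterile libraries S1, S4 and S5 had 95, 137 and 146 counts, and 3.76 to 4.74 CPM with S4 in between. F1 was the lowest fertile library here, at 0.683 times the mean of F2 and F3, and still above every sterile library. The sterile-high unigene Contig27341 had 3.78, 1.90 and 6.43 CPM in the fertile libraries, where F1 was in the middle. In the sterile libraries it had 10.4, 10.1 and 27.7 CPM, and S5 was the library that stood apart.

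**Figure D1:**
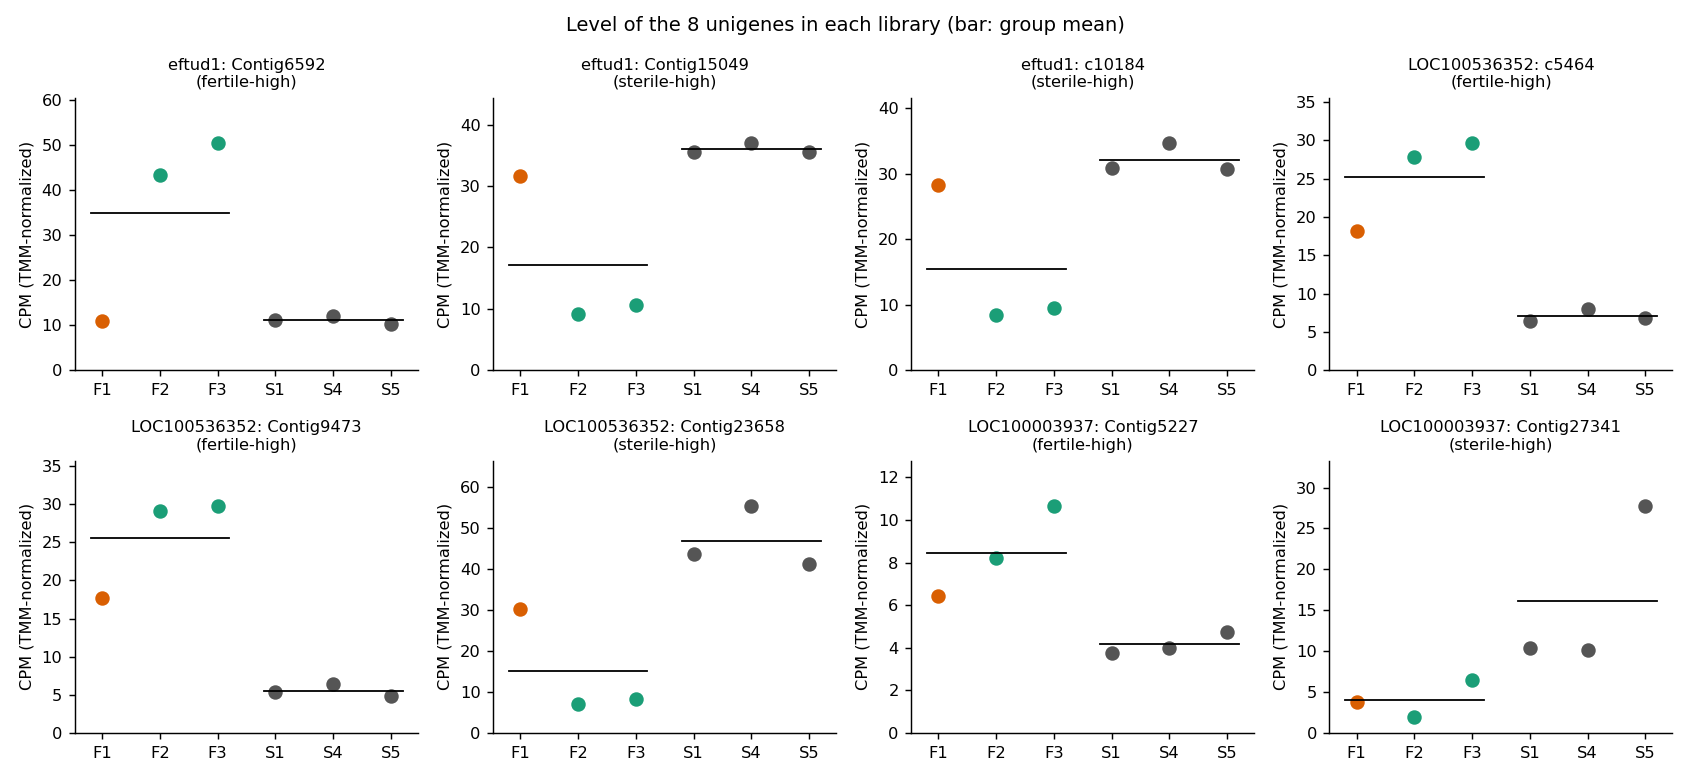
TMM-normalized CPM (y axis, linear, from 0) of the 8 unigenes in libraries F1 (orange), F2 and F3 (green) and S1, S4 and S5 (grey), with a black line at the mean of each group. In *eftud1* Contig6592 the F1 point (11.0 CPM) lies among the sterile points (10.3 to 12.0 CPM), in *LOC100536352* F1 lies between F2 and F3 and the sterile points, and in *LOC100003937* Contig27341 the S5 point (27.7 CPM) is the one far from the rest.

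The relative use of the opposed unigenes was compared within each library as the share of fertile-high counts among all counts of the symbol, a ratio that does not depend on library size. For *eftud1* this share was 15.5% in F1 (297 of 1913 counts, 95% Clopper-Pearson interval 13.9% to 17.2%), 71.2% in F2 and 71.5% in F3. In S1, S4 and S5 it was 14.4%, 14.4% and 13.5%. The interval of F1 overlapped those of the 3 sterile libraries (12.1% to 16.0% in all) and lay far below the interval of F2 (69.0% to 73.2%). Intervals cover counting error only.

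For *LOC100536352* the share of fertile-high counts was 54.3% in F1 (967 of 1780 counts, 52.0% to 56.7%), 89.0% in F2 and 87.8% in F3. In S1, S4 and S5 it was 21.2%, 20.5% and 22.1%, and the highest limit of the sterile intervals was 24.2%. F1 was thus apart from both the other fertile and the sterile libraries by more than counting error, whereas the intervals of the sterile libraries overlapped.

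For *LOC100003937* the share was 63.0% in F1 (174 of 276 counts, 57.1% to 68.8%), 81.3% in F2 and 62.4% in F3. Here the intervals of F1 and F3 overlapped and F2 was the fertile library that stood apart, with an interval of 76.4% to 85.5%. The sterile shares were 26.6% in S1, 28.3% in S4 and 14.6% in S5, where the interval of S5 (12.5% to 16.9%) lay below the others. Counts of this symbol were lower than those of the other symbols (276 to 1001 per library), so its shares are less precise.

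**Figure D2:**
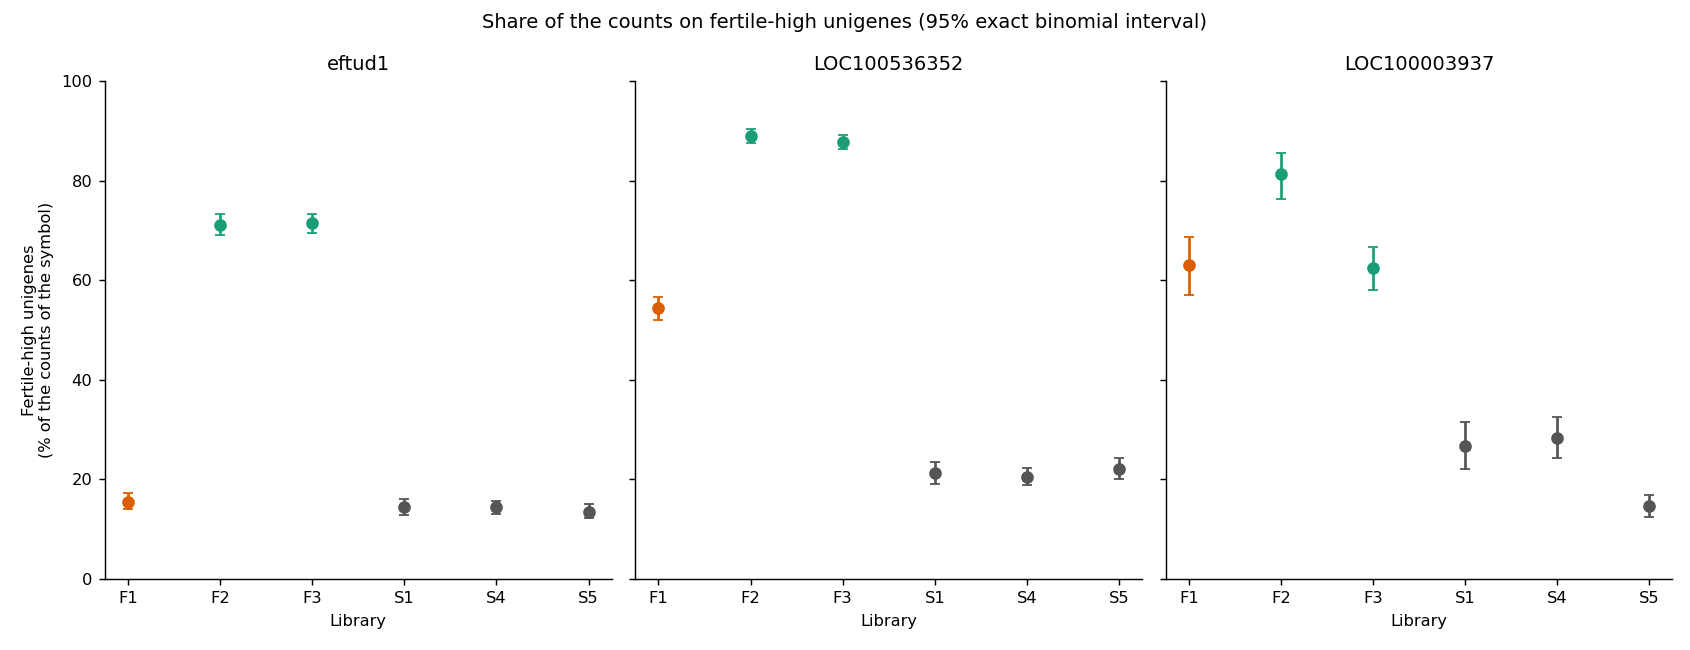
Share of the counts of each symbol that fell on its fertile-high unigenes (y axis, percent) in libraries F1 (orange), F2 and F3 (green) and S1, S4 and S5 (grey), with exact 95% binomial intervals as error bars. F1 lies with the sterile libraries for *eftud1* (15.5%), midway for *LOC100536352* (54.3%) and with F3 for *LOC100003937* (63.0%).

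The sum over the unigenes of a symbol varied much less than its unigenes for *eftud1* and *LOC100536352*. The unigenes were chosen as opposed in these same libraries, so a sum that varies less is in part built in and is a description only. The *eftud1* sum was 70.9, 61.1 and 70.6 CPM in F1, F2 and F3 and 77.6, 83.6 and 76.5 CPM in S1, S4 and S5. Its coefficient of variation over the 6 libraries was 10.5%, against at least 48.9% for each of the 3 unigenes. All fertile sums were below all sterile sums, an order that 11.2% of all tested unigenes also had. F1, whose use of the unigenes was that of the sterile libraries, was nevertheless in its sum close to F3. This sum counts both sterile-high unigenes, which carry the same pattern. Contig6592 and Contig15049 alone had 11.0 and 31.6 CPM in F1 against 50.4 and 10.6 CPM in F3. The closeness of F1 to F3 and the order of the groups therefore depend on counting both. The mean sum was 67.5 CPM (SD 5.59, n = 3) for the fertile libraries and 79.2 CPM (SD 3.80, n = 3) for the sterile libraries, with a log2 fold change (fertile over sterile) of -0.23 (standard error 0.09).

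The *LOC100536352* sum was 66.0, 63.9 and 67.6 CPM in F1, F2 and F3 and 55.5, 69.7 and 52.9 CPM in S1, S4 and S5. Its coefficient of variation was 10.9%, against at least 63.9% for its unigenes, and the groups overlapped. The SD of the sum was 1.86 CPM over the fertile and 9.06 CPM over the sterile libraries (n = 3 each), and the F1 sum lay between those of F2 and F3. This sum counts both fertile-high unigenes, which moved together. Of these, c5464_g1_i2_7015_9468 had 18.1, 27.8 and 29.6 CPM in F1, F2 and F3, where the opposed Contig23658 had 30.1, 7.01 and 8.26 CPM. The place of the F1 sum and the small variation therefore depend on counting both. The log2 fold change of the sum was 0.15 (standard error 0.11).

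The *LOC100003937* sum did not level out in this way. It was 10.2, 10.1 and 17.1 CPM in the fertile and 14.1, 14.1 and 32.5 CPM in the sterile libraries, with a coefficient of variation of 50.9%, and the groups overlapped. Its log2 fold change was -0.70 (standard error 0.34), and -0.17 without S5. None of the 3 sums was called by edgeR's quasi-likelihood test when fitted with all other unigenes, where 46 of 35782 entries were called. Only the *eftud1* sum had an unadjusted *p* under 0.05 in that test, as had 5551 of all entries. DESeq2 called none of the sums, and 291 of all entries. A longer unigene collects more reads, so the sums weigh long unigenes more.

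**Figure D3:**
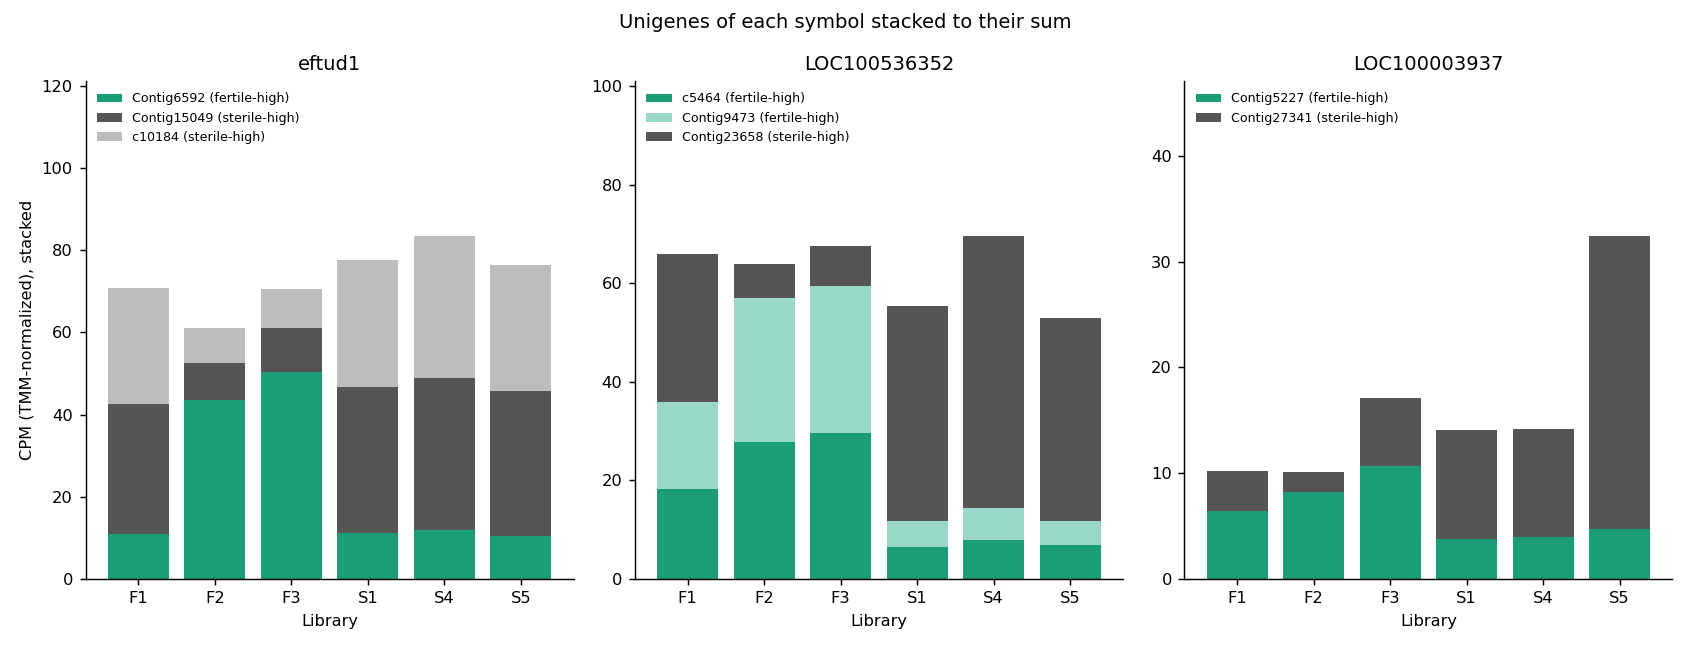
TMM-normalized CPM of the unigenes of each symbol, stacked to their sum (y axis, linear, from 0), in the 6 libraries, with fertile-high unigenes in green and sterile-high unigenes in grey. The stacks of *eftud1* (61.1 to 83.6 CPM) and *LOC100536352* (52.9 to 69.7 CPM) are of similar height while their makeup changes, and the S5 stack of *LOC100003937* (32.5 CPM) is higher than the others.

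To compare the 3 symbols on 1 scale, the level of F1 in each unigene was placed between the sterile mean (0) and the mean of F2 and F3 (1) on the scale of log2(CPM + 0.5). The place depends on this scale, and a linear scale was not used. In the share of counts, which is linear, F1 was midway for *LOC100536352* (54.3%). The place of F1 was -0.01, 0.10 and 0.10 in the *eftud1* unigenes Contig6592, Contig15049 and c10184_g1_i1_4939_21917. For *LOC100536352* it was 0.25 in Contig23658, 0.69 in Contig9473 and 0.67 in c5464_g1_i2_7015_9468. For *LOC100003937* it was 0.53 in Contig5227 and 1.07 in Contig27341. The departure of F1 was therefore toward the sterile libraries in every unigene of the first 2 symbols, reaching or nearly reaching the sterile level in *eftud1* and stopping short of it in *LOC100536352*, and in *LOC100003937* the fertile-high unigene alone moved that way. With S1 in place of the sterile mean, chosen after seeing the data, these places were between -0.01 and 1.10 and on the same side of 0.5.

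F1 was nearer to the sterile mean than to the mean of F2 and F3 in 4 of the 8 unigenes. Of the 505 tested unigenes in which F2 and F3 differed more than 2-fold from the sterile mean, F1 was nearer to the sterile mean in 142 (28.1%). The same measure gave 23.1% of 347 unigenes with F2 and 35.0% of 531 unigenes with F3 as the fish compared. Each set of unigenes was chosen by the gap of the other fertile libraries, so the sets differ. In these sets F1 did not lean toward the sterile libraries more often than both its sisters. F1 was more than 2-fold above both F2 and F3 in the 3 sterile-high unigenes Contig15049, c10184_g1_i1_4939_21917 and Contig23658, and more than 2-fold below both in Contig6592. Over all tested unigenes, F1 was that far above in 0.145% and below in 0.257%. F2 was that far above the other fertile libraries in 0.19% and below in 0.383%, and F3 in 0.299% and 0.126%, but neither departed in any of the 8 unigenes. Because the 3 symbols were selected on this departure, their count is not read against these shares.

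In the comparison of all fertile with all sterile libraries, the fertile libraries were all above the sterile libraries in 3 of the 4 fertile-high unigenes (10.7% of all tested unigenes), and all below in the 4 sterile-high unigenes (11.2%). edgeR's quasi-likelihood test called 2 of the 4 fertile-high unigenes, where 0.081% of all tested unigenes were called higher in fertile gonads. It called none of the 4 sterile-high ones, where 0.0559% were called higher in sterile gonads. Each of the 8 unigenes had an unadjusted edgeR *p* under 0.05, as had 15.5% of all tested unigenes. DESeq2 called 3 of the 8, all fertile-high, and 0.824% of all tested unigenes. With library size only in place of TMM factors, edgeR called 71 unigenes higher in fertile and 27 in sterile gonads, against 29 and 20. The unigenes that edgeR called with TMM factors were the *LOC100536352* unigenes Contig9473, with a log2 fold change of 2.21 (standard error 0.21), and c5464_g1_i2_7015_9468, with 1.83 (standard error 0.19). These 2 unigenes moved together and are not separate evidence. The opposed Contig23658 had -1.63 with a standard error of 0.48, and Contig6592 had 1.65 with a standard error of 0.45. The smallest fold change among the 8 was that of Contig5227, at 1.02 (standard error 0.19), just above the study's limit of 2-fold. Without F1, 4 fertile-high and 3 sterile-high unigenes were called, all but Contig27341, where 0.141% and 0.117% of the unigenes tested were called. The log2 fold changes were then 2.07 for Contig6592 (standard error 0.12), -1.87 for Contig15049 (standard error 0.12) and -2.61 for Contig23658 (standard error 0.17). These calls rest on the comparison that chose the unigenes. Those without F1 also rest on the choice of symbols in which F1 appeared to differ, so their number is not read against these shares.

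Across the 6 libraries, the sterile-high unigenes of *eftud1* and *LOC100536352* had similar profiles. The Pearson correlation of log2(CPM + 0.5) between Contig15049 and Contig23658 was 0.99, and that between the fertile-high Contig6592 and Contig9473 was 0.84, where F1 separates the profiles. Opposed unigenes of a symbol mirrored each other, with -0.98 between Contig6592 and Contig15049 and -0.91 between Contig9473 and Contig23658. The *LOC100003937* pair had -0.60. These correlations are over 6 libraries that fall into groups, and are a description only.

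Among unigenes with a symbol in the study's list, those most like Contig6592 belonged to *txlng*, which encodes a taxilin of vesicle trafficking, and *rwdd3*, whose product enhances SUMO conjugation in mammals. The *txlng* unigene Contig8325 (r = 0.99) had 7.16, 25.0 and 23.9 CPM in F1, F2 and F3 and 6.09, 6.36 and 5.26 CPM in S1, S4 and S5. The *rwdd3* unigene (r = 0.99) had 0.408, 6.98 and 6.36 CPM in the fertile and 0.435, 0.438 and 0.616 CPM in the sterile libraries. In both genes F1 had about the level of the sterile libraries. The unigenes named as most alike, here and below, were picked by their correlation over these same libraries. A shared pattern is therefore built in. Another *txlng* unigene was the third most like, with r = 0.99. In all, 46 of the 35786 other tested unigenes had r over 0.95 with Contig6592, 3 of them with a symbol.

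Apart from the 8 unigenes themselves, the symbol most like the sterile-high unigenes of *LOC100536352* and *eftud1* was *rhbdd1*, a rhomboid-like protease of intracellular membranes. Its sterile-high unigene Contig21658 had r = 0.996 with Contig23658 and 0.993 with Contig15049, with 14.5, 3.69 and 4.30 CPM in F1, F2 and F3 and 22.3, 22.4 and 20.4 CPM in S1, S4 and S5. *rhbdd1* also has a fertile-high unigene, with 13.7, 18.9 and 22.3 CPM in the fertile and 6.05, 4.23 and 4.87 CPM in the sterile libraries. The share of fertile-high counts of *rhbdd1* was 48.6% in F1, 83.7% in F2 and 83.8% in F3, and 15.9% to 21.4% in the sterile libraries, which is the midway position of F1 seen in *LOC100536352*.

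Apart from one another, the fertile-high unigenes of *LOC100536352* were most like *tyw1* (r = 0.99 with Contig9473), an enzyme of wybutosine synthesis in transfer RNA, *adamts6* (r = 0.99 with c5464_g1_i2_7015_9468), a metalloprotease, and *zgc:123339*. The *tyw1* unigene had 3.67, 4.98 and 4.86 CPM in F1, F2 and F3 and 1.82, 2.07 and 1.46 CPM in S1, S4 and S5. F1 was the lowest fertile library here. Contig5227 of *LOC100003937* was also most like *adamts6*, with r = 0.98. That *adamts6* unigene had 34, 54 and 57 counts in the fertile and 17, 27 and 25 counts in the sterile libraries.

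Contig27341 was most like *si:ch73-221f6.7*, *chst2b*, a carbohydrate sulfotransferase, and *slc44a2*, a choline transporter-like protein. The correlations were between 0.994 and 0.995, and 317 tested unigenes had r over 0.95, the highest number among the 8. The *slc44a2* unigene had 1.26, 0.644 and 1.73 CPM in F1, F2 and F3 and 2.45, 2.07 and 4.22 CPM in S1, S4 and S5. F2 was the lowest and S5 the highest library in both, a likeness that the choice by correlation builds in.

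Other genes of the same families were compared as lists. Of 9 unigenes of ADAM, ADAMTS and matrix metalloproteases, 8 were tested and edgeR called none in either direction (8 had an unadjusted *p* under 0.05 and DESeq2 called 5, where 15.5% and 0.824% of all tested unigenes did so). Their median log2 fold change was -1.68, against -0.01 over all tested unigenes, and 6 of the 8 were negative, but the study selected these unigenes on the same fish. The ADAMTS members, *adamts6* and *adamts15* (not tested), were both listed as fertile-high, opposite to Contig27341 but in the same direction as Contig5227. The summed level of all 9 unigenes of the list was 91.7, 37.7 and 85.7 CPM in F1, F2 and F3 and 158.8, 193.5 and 406.4 CPM in S1, S4 and S5. F2 was the lowest and S5 the highest library, as in Contig27341. None of the 8 had F1 more than 2-fold from both other fertile libraries (0.145% of all tested unigenes above and 0.257% below). In 3 of the 8, F2 was that far below (0.383% of all tested unigenes).

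Leukocytes express several of these proteases. The marker unigenes used here were all listed by the study as different between these same fish, so their differences between the groups are a description. Of 13 unigenes of 9 leukocyte markers, 11 were tested, 8 with a negative log2 fold change and a median of -1.28. All 11 had an unadjusted edgeR *p* under 0.05 and DESeq2 called 6, where 15.5% and 0.824% of all tested unigenes did so. edgeR called 1, a unigene of *mpx* (myeloperoxidase) that was higher in fertile gonads (0.081% of all tested unigenes were called in that direction). The summed level was 12.9 to 18.4 CPM in the fertile libraries and 20.2, 16.4 and 30.0 CPM in S1, S4 and S5, and the groups overlapped. The 3 *mpx* unigenes were all higher in the fertile libraries, with 12.8 CPM in F2. Without *mpx*, a split made after the values were seen, the other 10 unigenes summed to 7.93, 5.52 and 8.96 CPM in F1, F2 and F3. In S1, S4 and S5 they summed to 18.9, 15.4 and 29.1 CPM, with no overlap. Of all tested unigenes, 11.2% had all fertile below all sterile libraries. *itgb2*, the beta chain of leukocyte integrins, had 3.34, 2.17 and 2.73 CPM in the fertile and 7.79, 6.42 and 12.9 CPM in the sterile libraries, again highest in S5. Exocrine pancreas markers summed to 0.644 to 1.71 CPM in the fertile libraries and to 2.93, 8.84 and 12.8 CPM in S1, S4 and S5, and the erythrocyte globin *ba1l* had at most 0.237 CPM in the fertile libraries and S1, 7.65 CPM in S4 and 3.57 CPM in S5. The part of other cell types in the *LOC100003937* values was not tested. F1 was nearer to the sterile mean in both gonad somatic unigenes, with a place (0 at the sterile mean, 1 at the mean of F2 and F3) of 0.37 in *fshr* and 0.36 in *nr5a1b*. For *nr5a1b*, F2 was the highest fertile library, with 9.64, 21.7 and 12.8 CPM in F1, F2 and F3. In the meiotic germ cell unigenes, which were low (10 to 18 counts in each fertile library), F1 was nearer to F2 and F3. Its place was 0.83 in *spo11* and 0.93 in *sycp3*. In the 3 tested pancreas unigenes F1 was nearer to F2 and F3, although *cpa4*, a carboxypeptidase, had 0.704 CPM in F1 against 0.102 CPM in F2 and 0 in F3. The part of these cells in the *eftud1* and *LOC100536352* values was not tested.

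The list of ribosomal proteins and elongation factors, other genes of translation beside *eftud1*, holds only unigenes that the study listed as different between these same fish. Of its 6 unigenes, 1 was tested. This was *rpl38*, a protein of the large ribosomal subunit, with 1123, 2770 and 2130 counts in F1, F2 and F3 and 5255, 6862 and 4303 counts in S1, S4 and S5. It was not called by edgeR (log2 fold change -1.41, edgeR adjusted *p* = 0.104) but had an unadjusted *p* under 0.05 and was called by DESeq2. The other 5 listed unigenes had at most 1 count in each fertile library and in S1, but 10 to 34 counts in S4 and 5 to 17 counts in S5. Unigenes of these genes outside the study's list were not looked at, so these counts do not give the total level of the genes.

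A further 14 symbols have unigenes listed in both directions, with 38 unigenes of which 35 were tested. In these the distance of the F1 share of fertile-high counts from the nearest of F2 and F3 was 35.1 percentage points for *rhbdd1* and at most 3.04 points for the other 13. It was 55.6 points for *eftud1*, 33.5 points for *LOC100536352* and 0.665 points for *LOC100003937*. Other fertile libraries also stood apart. F2 was 33.9 points from the nearest fertile library for *glod4* and 18.2 points for *LOC100003937*, and F3 was 32.7 points away for *fam129bb*, 26.9 points for *LOC100003996* and 24.5 points for *gnpda2*. Hence 1 fertile library was more than 10 points from the others in 5 of the 14 symbols (F1 in 1, F2 in 1 and F3 in 3), and in the other 9 the largest distance was 5.32 points. Of the 30 tested unigenes of the 14 symbols with a gap of more than 2-fold between the mean of F2 and F3 and the sterile mean, 1 (Contig21658 of *rhbdd1*) had F1 nearer to the sterile mean. A fertile library that stands apart was thus not particular to *LOC100536352*, and which library it was differed between symbols. None of the 14 had a distance as large as that of *eftud1*. Because *eftud1* was chosen for the departure of F1, its distance is not read against theirs. Single sterile libraries also stood apart in some symbols. For *arfgef2* the share was 50.5% in S5 against 24.9% in S1 and 25.7% in S4. For *fam129bb* it was 54.6% in S4 against 20.1% in S1 and 19.9% in S5, whereas the sterile shares of *pld3* were all between 32.0% and 35.6%.

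**Figure D4:**
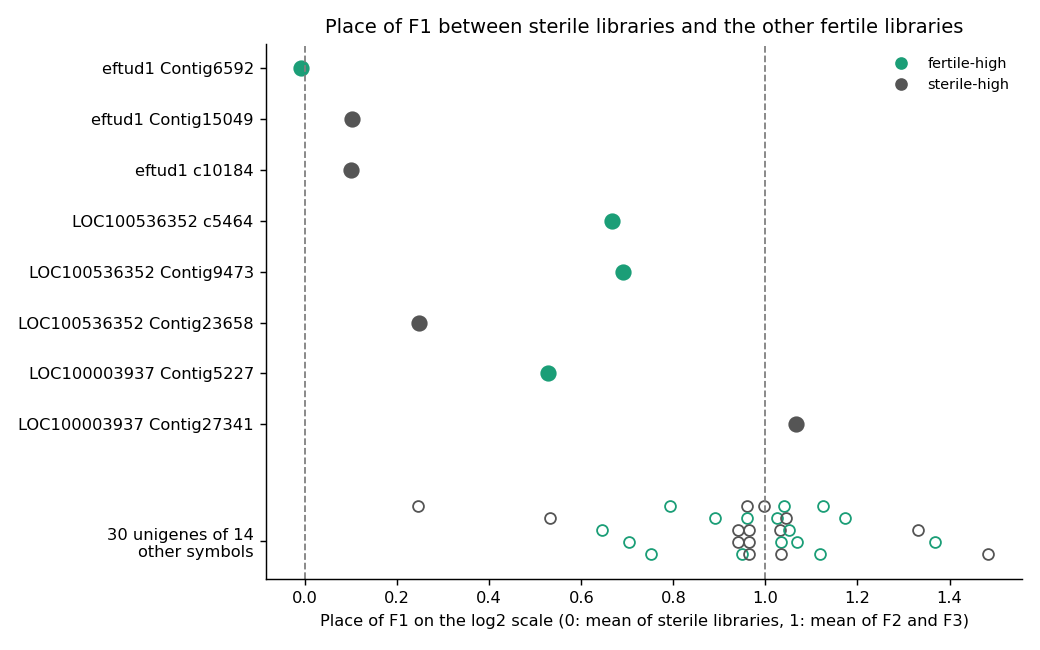
Place of F1 on the scale of log2(CPM + 0.5), where 0 is the mean of the sterile libraries and 1 the mean of F2 and F3 (x axis), for the 8 unigenes (filled) and for 30 unigenes of the 14 other symbols (open, spread vertically for legibility), with fertile-high unigenes in green and sterile-high unigenes in grey. The *eftud1* unigenes lie at -0.01 to 0.10 and those of *LOC100536352* at 0.25 to 0.69, and 1 open point lies below 0.5.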

How the data were processed

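RNA-seq of gonads was analyzed in 6 libraries. The authors assembled the reads with Trinity and CAP3, aligned them with BWA (version 0.7.8-r455, from the submitters' notes on processing), and deposited raw counts for each unigene. Counting is credited to Picard in the paper, while HTSeq is listed in those notes. How reads matching several unigenes, and strand, were handled is not given in the sources consulted. Symbols are those of S1 File, and 0 of the 3 matched the flounder RefSeq gene table.

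All unigenes were fitted together in R 4.3.3 with edgeR 4.0.16 (filterByExpr, TMM, glmQLFit, glmQLFTest), and called where the Benjamini-Hochberg adjusted *p* was below 0.05 with over 2-fold change. Standard errors are the log2 fold change over the square root of F. The fit was tested on simulated data. The study used DEseq, and DESeq2 1.42.0 was an alternative, as were RLE factors, library size only, other low-count filters, other pseudocounts (0.1 and 5 in place of 0.5 CPM) and each fish left out. Shares have exact intervals (scipy 1.17.1).

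The named genes are the 8 unigenes, the 3 unigenes with a symbol most correlated with each, and called members of the lists. *itgb2*, *rpl38*, *cpa4*, *adamts15*, *glod4*, *fam129bb*, *LOC100003996*, *gnpda2*, *fshr*, *nr5a1b*, *spo11*, *sycp3* and *ba1l* were given values after these were seen. Members and lists were chosen with earlier results of these data known.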

Additional observations from a re-analysis of the deposited data

How the results depend on the processing

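The 2 calls among the 8 unigenes were made under every alternative that kept all the libraries, with 3 calls in DESeq2, where Contig5227 was added. With each fish left out in turn the number called was between 2 and 7, and the 7 came without F1, the library on whose departure the symbols were chosen. Against S1 alone, an alternative chosen after seeing the data that leaves fewer sterile libraries, 0 unigenes were called by edgeR, and the edgeR adjusted *p* was 0.123 for Contig9473 and 0.134 for c5464_g1_i2_7015_9468. Over all tested unigenes edgeR called 49, against 295 with DESeq2, 98 with library size only, 79 with no low-count filter, 97 without F1 and 89 without S5. The 3 sums were not called under any alternative, with each fish left out included (0 in each case). No alternative changed the weight of the unigenes in the sums. F1 departed more than 2-fold in 4 unigenes under every pseudocount, scaling and fertile library left out, and more than 1.5-fold in 6. Of 48 alternative values of the departure, 1 reversed, that of Contig27341 without F3, at 0.84 on the log2 scale against -0.12 with both other fertile libraries and -0.69 without F2. The share of fertile-high counts moved outside its counting interval in 24 of 36 alternative values, since dividing each unigene by its mean or using the leading pair changes the weights. For *eftud1* the leading pair gave 25.8% in F1, 82.6% in F2 and 22.5% to 24.5% in the sterile libraries, and for *LOC100536352* 37.6% in F1, 79.9% in F2 and 12.5% to 14.3% in the sterile libraries. No paired analysis was possible because the columns of the sterile libraries S4 and S5 carry no number that a fertile library has. The paper also describes no pairing of fertile with sterile fish, so the shared number of F1 and S1 was not read as a pair. With 3 fish a group, the smallest two-sided exact permutation *p* for a single value is 0.1.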
